A study of Mus musculus with 8 samples.

Results

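The genes described here are 9 mouse genes of the transforming growth factor β (TGF-β) pathway, Pmepa1, Skil, Ski, Smad7, Smad3, Smad2, Tgfbi, Ltbp2 and Tgif1. They were taken by symbol from a table of 24930 genes. All 9 were found, and all 9 were among the 12927 genes that reached at least 1 FPKM, a level scaled to transcript length and to the fragments mapped in the library, in at least 2 libraries. RNA was measured by poly-A sequencing in mouse intestinal stromal cells with a low level of the receptor Pdgfra. There were 3 libraries of cells grown alone in Matrigel, 3 of cells cocultured with control (wild-type) enteroids from duodenum, and 2 of cells cocultured with enteroids whose β-catenin has a gain of function (BcatGOF). β-catenin is the effector of WNT signalling. Cocultures were started with 50000 stromal cells and lasted 7 days in medium without EGF, R-spondin1 and Noggin, and living GFP-positive cells were then sorted. The stromal cells themselves are given no genotype difference between groups. The labels give no seeding number or culture time for cells grown alone, no age or sex of the animals, and neither the promoter of the GFP nor the exact allele of the enteroids. The study's text also names SB525334, an inhibitor of the TGF-β type I receptor. No library label mentions it, so no library was assigned to it. Nothing in the labels says that replicates came from separate animals or cultures, so the p-values measure only the spread between these libraries.

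TGF-β binds paired receptor kinases at the cell surface, which phosphorylate the signal-carrying proteins SMAD2 and SMAD3. With SMAD4 these enter the nucleus and switch genes on or off. Among the genes switched on are brakes on the same pathway, and their transcripts are widely used as a readout of it. In intestinal fibroblasts the pathway is best known for driving matrix production and the contractile myofibroblast state.

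Before the results, 3 facts about the libraries are needed. Libraries of replicate number 2 carried Xist, the RNA of the inactive X chromosome, at 27.2 to 34.9 FPKM, and the others at no more than 0.174 FPKM, and the submitters gave those libraries names that start with MIX, which the labels do not explain. Fibroblast markers were above 1 FPKM for 10 of 10 genes in every library, and the 7 endothelial markers were each under 1 FPKM in every library. Epithelial markers (15 genes) summed to 6.33 to 8.15 FPKM in cells grown alone. With wild-type enteroids the sums in replicate order were 18.2, 9.18 and 121 FPKM, and with BcatGOF enteroids 31.3 and 123 FPKM. Within the same gates, leukocyte markers (10 genes) summed to 59.9 to 116, 25.0 to 110 and 51.8 to 134 FPKM in the groups alone, wild-type and BcatGOF. Mesothelial markers (4 genes) summed to 2.40 to 18.4, 7.05 to 50.4 and 5.75 to 8.79 FPKM in the same order. Smooth muscle and pericyte markers (7 genes) summed to 239 to 457, 159.6 to 564 and 96.3 to 303 FPKM, markers of interstitial cells of Cajal (3 genes) to 11.5 to 18.1, 10.3 to 16.9 and 18.5 to 30.5 FPKM, and those of enteric glia and neurons (6 genes) to 22.3 to 33.7, 12.3 to 37.3 and 16.9 to 17.6 FPKM. The leukocyte sums came mostly from Lyz2 (14.0 to 82.2 FPKM) and Cd14 (5.88 to 70.0 FPKM), while Ptprc was at most 0.051 FPKM and Cd3e at 0. Those of glia and neurons came mostly from Tubb3 and S100b, with Sox10, Gfap and Elavl4 at most 0.0861 FPKM. Mesothelial sums came mostly from Wt1 and Msln, with Upk3b and Lrrn4 at most 0.0993 FPKM. Such sums alone do not show that these cell types were present. In bulk RNA such as this, fewer cells of a type and less RNA per cell cannot be told apart.

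In levels per transcript length, the members spanned a wide range. Over all 8 libraries Tgfbi had the highest mean, 234 FPKM, above 97.6% of the genes tested, and Smad2 the lowest, 6.28 FPKM, above 35.9% of them. In cells grown alone the order of mean FPKM was Tgfbi, Ltbp2, Pmepa1, Tgif1, Ski, Smad3, Smad7, Skil and Smad2. Neighbours in that order overlapped in range, except that Pmepa1 stood above Tgif1, Smad3 above Smad7, and Skil just above Smad2 in every library of the group. The same 3 secreted or membrane products, Tgfbi, Pmepa1 and Ltbp2, had the highest means in all 3 groups.

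The comparison of wild-type coculture with cells grown alone addresses the response of the stroma to normal epithelium. Of these genes, Pmepa1, Skil, Smad7 and Tgfbi, were higher in all 3 cocultures than in any library of cells grown alone, by 1.68- to 3.17-fold in mean FPKM. Smad2, Smad3, Ski and Tgif1 overlapped between the groups and their means differed by at most 1.11-fold. No member passed over all genes in limma (0 of 9 at an adjusted p under 0.05, lowest adjusted p = 0.427), and 0.00774% of all genes tested did, which is 1 gene of 12927. At an unadjusted p under 0.05 there were 5 of 9 members, all higher, against 4.9% of all genes in either direction and 2.29% higher. Groups did not overlap for 4 of 9 members, all higher, against 6.35% of all genes in that direction. The median log2 fold change was 0.68 for the 9 members and 0.019 for all genes tested. The members were chosen with results of these data known, so these counts describe them and test nothing about the group.

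The comparison of BcatGOF coculture with cells grown alone addresses the response to epithelium with active β-catenin. Pmepa1, Skil, Smad7, Smad3 and Tgif1 were above every library of cells grown alone in both libraries, by 1.21- to 2.54-fold in mean FPKM. Again 0 of 9 members passed over all genes (lowest adjusted p = 0.894, limma), as did 0.00774% of all genes tested. At an unadjusted p under 0.05 there were 4 of 9 members, all higher, against 5.5% of all genes in either direction and 2.88% higher. With the replicate number as a block there were 2 (fixed) and 4 (random), and the share of all genes was not taken there. Groups did not overlap for 5 of 9 members, all higher, against 8.49% of all genes in that direction. This comparison shares its control libraries with the one above. Pmepa1, Skil and Smad7 were the 3 members of 9 that lay above all 3 libraries of cells grown alone in all 5 cocultures, where 2.56% of all genes tested did so. Between BcatGOF and wild-type coculture 0 of 9 members and 0% of all genes passed over all genes, and 1 member, Tgfbi, was lower at an unadjusted p under 0.05, against 2.89% of all genes in either direction and 1.77% lower. The ranges of these groups did not separate for any member (0 of 9), against 6.36% of all genes higher and 7.64% lower in BcatGOF.

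**Figure D1:**
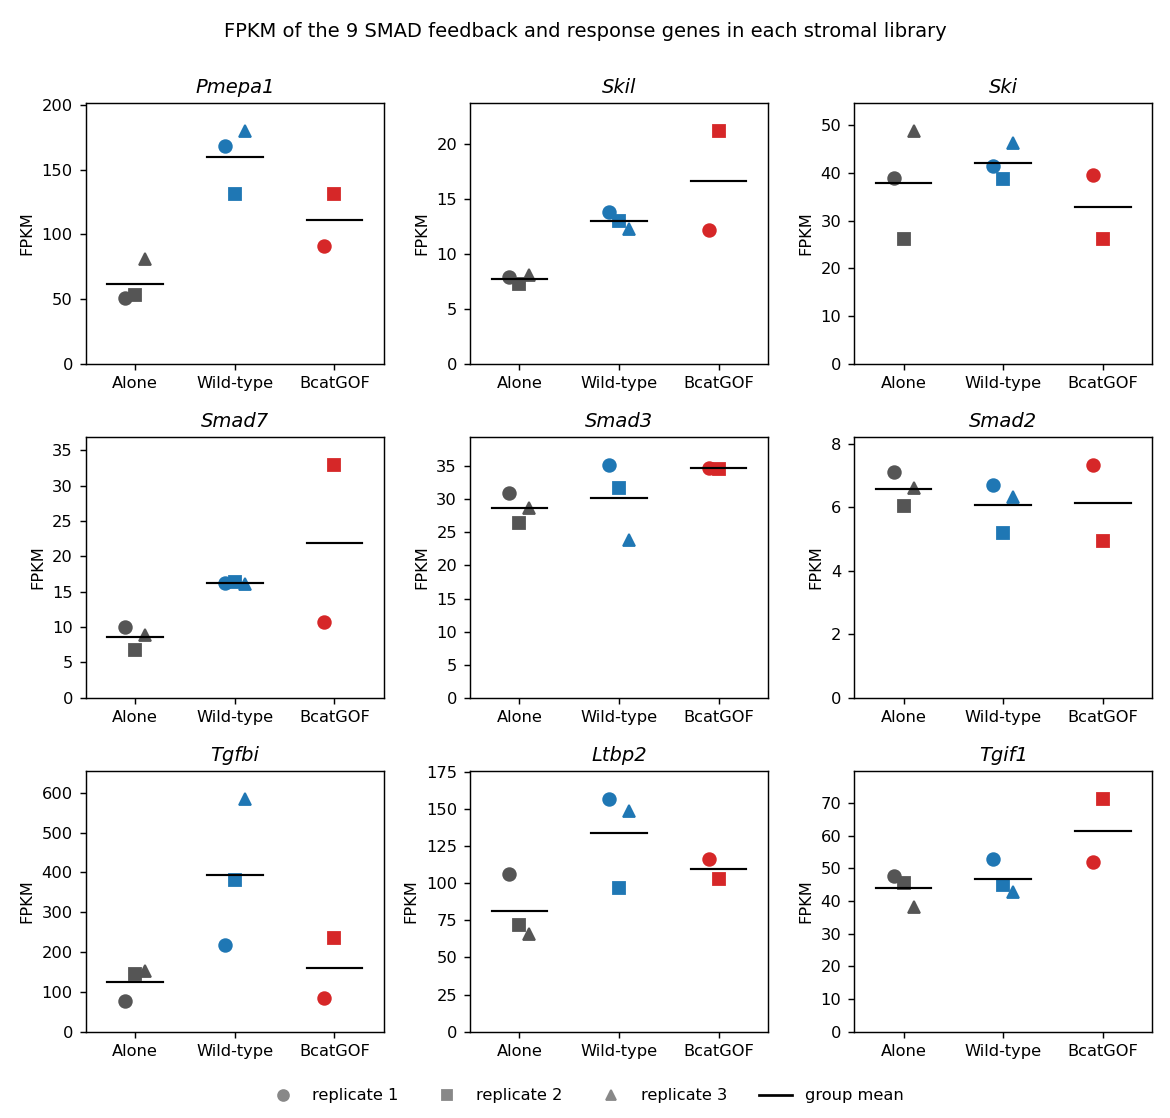
FPKM of each gene (vertical axis, linear, from 0) in each library, by group. Symbols mark the replicate number and the line the group mean. Pmepa1, Skil and Smad7 lie above the cells grown alone in all 5 cocultures, Smad7 stands at 16.1 to 16.3 FPKM in the wild-type cocultures, and the 2 BcatGOF libraries are far apart for Smad7 and Tgfbi.

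The inhibitors of the pathway come first. Pmepa1 encodes a membrane protein that binds SMAD2 and SMAD3 and keeps them from the receptor. It was at 50.9, 52.9 and 80.9 FPKM in replicates 1, 2 and 3 of cells grown alone. In wild-type coculture it was at 168, 131 and 179.7 FPKM, and in BcatGOF coculture at 90.7 and 131 FPKM. Every coculture was above every library of cells grown alone. BcatGOF replicate 1 lay below the wild-type range and replicate 2 at its lower end. The means were 61.6 ± 16.8 (SD, n = 3) FPKM alone and 159.8 ± 25.2 (SD, n = 3) FPKM with wild-type enteroids. The mean was 2.60-fold that of cells grown alone with wild-type enteroids, a log2 fold change of 1.38 (SE 0.25, adjusted p = 0.427, limma). This was the 19th smallest p of the 12927 genes tested. With BcatGOF enteroids the mean was 1.80-fold, a log2 fold change of 0.85 (SE 0.28, adjusted p = 0.894, limma). BcatGOF against wild-type coculture gave a log2 fold change of -0.53 (95% interval -1.18 to 0.12), which did not pass. It was -0.27 without BcatGOF replicate 1 and -0.80 without replicate 2.

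Smad7 encodes the inhibitory SMAD that occupies the receptor and brings ubiquitin ligases to it. Its transcript was at 10.0, 6.81 and 8.87 FPKM in cells grown alone. In wild-type coculture it was at 16.2, 16.3 and 16.1 FPKM, the closest agreement of any member within that group. In BcatGOF coculture it was at 10.8 FPKM in replicate 1 and 32.9 FPKM in replicate 2. The first of these was 1.07-fold the highest library of cells grown alone, and the second was the highest of all 8. The log2 fold change over cells grown alone was 0.86 (SE 0.35, adjusted p = 1.00, limma) with wild-type and 1.07 (SE 0.39, adjusted p = 0.894, limma) with BcatGOF enteroids. Without BcatGOF replicate 1 the second value was 1.84, where the spread of the lone library is taken from the rest. Without BcatGOF replicate 2 it was 0.31. BcatGOF against wild-type coculture was at 0.22 with both libraries and at -0.55 without replicate 2. The SE of 0.35 for wild-type coculture uses a spread shared with the BcatGOF libraries. Fitted without that group, the value of 0.86 had an SE of 0.16 (adjusted p = 0.159, limma).

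Skil encodes SnoN, a corepressor that binds SMAD complexes on DNA and is itself degraded and then induced by the signal. It was at 7.89, 7.28 and 8.08 FPKM in cells grown alone, at 13.8, 13.0 and 12.2 FPKM in wild-type coculture and at 12.1 and 21.2 FPKM in BcatGOF coculture. All 5 cocultures were at least 1.50-fold the highest library of cells grown alone. Wild-type coculture gave a log2 fold change of 0.68 (SE 0.20, adjusted p = 0.821, limma) over cells grown alone. Fitted without the BcatGOF group, this value had an SE of 0.13 (adjusted p = 0.159, limma). With BcatGOF enteroids the log2 fold change was 0.96 (SE 0.22, adjusted p = 0.894, limma), the 25th smallest p of the genes tested. Without BcatGOF replicate 1 it was 1.34, and without BcatGOF replicate 2 it was 0.59.

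Ski encodes the corepressor most closely related to SnoN. It was at 39.0, 26.2 and 48.7 FPKM in cells grown alone, at 41.4, 38.8 and 46.3 FPKM in wild-type coculture and at 39.6 and 26.2 FPKM in BcatGOF coculture. The groups overlapped throughout, and the libraries numbered 2 were the lowest of each group. The log2 fold change was 0.19 (95% interval -0.40 to 0.77) with wild-type and -0.19 (95% interval -0.84 to 0.47) with BcatGOF enteroids, and its sign turned in both comparisons when 1 library was left out. Skil and Ski thus differed in measured values: Skil lay above the range of cells grown alone in 5 of 5 cocultures and Ski in 0 of 5. This difference between the genes was not tested.

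Tgif1 encodes a homeodomain corepressor of SMAD complexes. It was at 47.8, 45.5 and 38.3 FPKM in cells grown alone, at 53.0, 44.9 and 42.8 FPKM in wild-type coculture and at 52.0 and 71.2 FPKM in BcatGOF coculture. Wild-type cocultures overlapped with cells grown alone. Both BcatGOF libraries lay above the cells grown alone, but BcatGOF replicate 1 lay below wild-type replicate 1. The log2 fold change was 0.093 (SE 0.18, adjusted p = 1.00, limma) with wild-type and 0.47 (SE 0.20, adjusted p = 0.894, limma) with BcatGOF enteroids. The second value was 0.25 without BcatGOF replicate 2 and 0.69 without replicate 1.

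The carriers of the signal follow. Smad3, the receptor-activated SMAD that binds DNA directly, was at 30.9, 26.5 and 28.6 FPKM in cells grown alone, at 35.1, 31.7 and 23.8 FPKM in wild-type coculture and at 34.8 and 34.6 FPKM in BcatGOF coculture. Both BcatGOF libraries were above all 3 libraries of cells grown alone, and the wild-type cocultures spanned them. The log2 fold change was 0.057 (95% interval -0.33 to 0.45) and 0.27 (95% interval -0.17 to 0.70), in the same order of comparisons. Smad2, its partner among the receptor-activated SMADs, was at 7.12, 6.05 and 6.60 FPKM in cells grown alone, at 6.70, 5.19 and 6.33 FPKM in wild-type coculture and at 7.33 and 4.93 FPKM in BcatGOF coculture. Here no group stood apart from another. The log2 fold change was -0.11 in both comparisons with cells grown alone, with 95% intervals of -0.51 to 0.30 and -0.56 to 0.35. These intervals leave room for differences of that size, so equal levels were not shown. Smad4, the shared partner of both and no member of the list, gave 0.040 (SE 0.18) and, in the second comparison, -0.096 (SE 0.20) on the log2 scale.

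**Figure D2:**
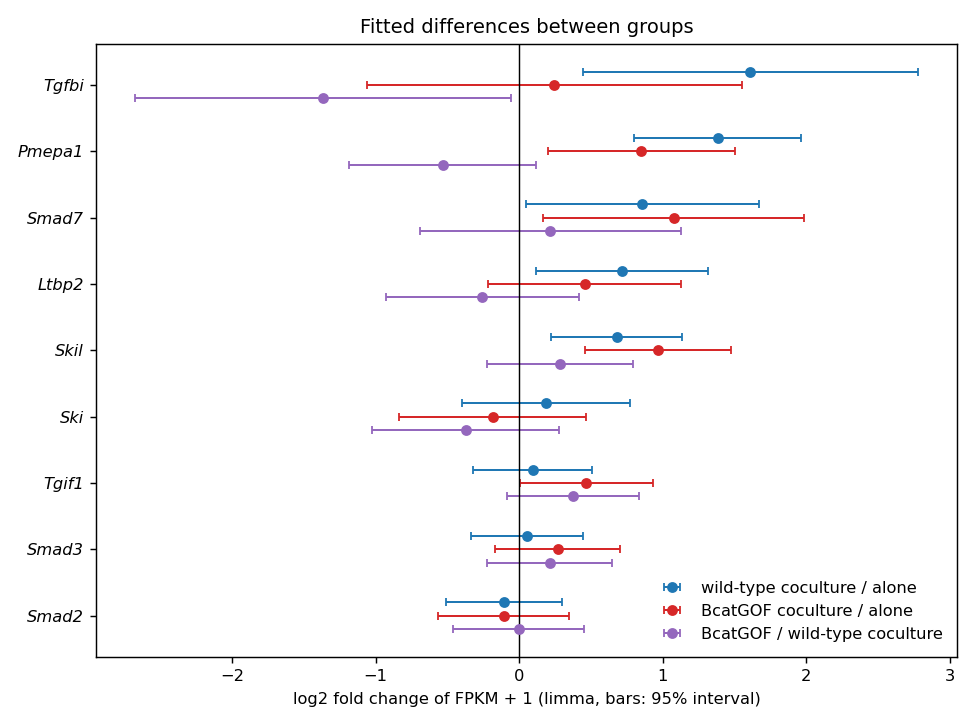
Log2 fold change of FPKM + 1 (horizontal axis) of each gene in the 3 comparisons, fitted in limma over all 8 libraries, with 95% intervals as bars. Tgfbi, Pmepa1, Smad7, Ltbp2 and Skil lie right of 0 with wild-type enteroids, with intervals that do not reach 0 before adjustment, and Ski, Tgif1, Smad3 and Smad2 have intervals across 0 there.

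The secreted products were the most abundant members beside Pmepa1. Tgfbi encodes a matrix protein named for its induction by TGF-β, and Ltbp2 encodes a microfibril protein of the latent TGF-β binding protein family that, unlike its relatives, does not hold latent TGF-β. For both, RefSeq gives a promoter window (build GRCm38.p6, 250 bases before to 50 after the gene's start), and 5 of the 9 members have such a window. The windows of the 2 secreted members are shown, a choice made after the matches of all 5 genes had been seen. Capitals mark CAGAC on either strand (GTCTG as printed), the short element that SMAD3 and SMAD4 recognise.
Tgfbi promoter, chr13:56609336-56609635, plus strand: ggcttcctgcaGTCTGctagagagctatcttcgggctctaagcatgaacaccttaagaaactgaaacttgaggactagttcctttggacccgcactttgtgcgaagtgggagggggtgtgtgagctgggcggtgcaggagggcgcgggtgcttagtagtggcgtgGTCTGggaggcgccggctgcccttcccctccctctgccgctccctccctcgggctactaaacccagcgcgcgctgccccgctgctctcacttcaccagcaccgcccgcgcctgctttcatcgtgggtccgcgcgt
Ltbp2 promoter, chr12:84876442-84876741, minus strand: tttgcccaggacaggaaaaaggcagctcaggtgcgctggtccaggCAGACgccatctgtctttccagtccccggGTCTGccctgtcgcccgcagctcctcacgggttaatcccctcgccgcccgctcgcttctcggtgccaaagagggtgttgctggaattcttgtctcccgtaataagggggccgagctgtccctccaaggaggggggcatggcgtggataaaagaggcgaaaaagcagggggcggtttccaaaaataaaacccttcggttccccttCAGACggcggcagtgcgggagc
The Tgfbi window held 2 matches to CAGAC and the Ltbp2 window 3, and 49.6% of all 32851 windows of 300 bases held at least 1. Of the members whose windows are not printed, Ski and Smad3 held 0 matches to CAGAC, and the 5 windows of Tgif1 held 0 to 2 each. Ski held 7 matches to GGCGC and Smad3 held 0. GGCGC, another element bound by SMADs, was found 4 times for Tgfbi and 0 times for Ltbp2 (both strands, overlapping matches counted), and in 36.9% of all windows. TGANTCA, the core element of AP-1 factors, was in neither window and in 7.81% of all. No match to CAGAC overlapped one to the other elements. These matches describe letters in the windows and say nothing of binding.

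Tgfbi was at 76.2, 144 and 152 FPKM in cells grown alone and at 218, 381 and 584 FPKM in wild-type coculture. In BcatGOF coculture it was at 84.2 and 235 FPKM. The wild-type cocultures were all above cells grown alone, while BcatGOF replicate 1 lay inside their range and replicate 2 above it. The mean with wild-type enteroids was 3.17-fold that of cells grown alone, the largest ratio among the 9 members, with a log2 fold change of 1.61 (SE 0.50, adjusted p = 0.823, limma). Without wild-type replicate 3, the library with the most epithelial marker RNA of that group, it was 1.27. With BcatGOF enteroids the log2 fold change over cells grown alone was 0.24 (SE 0.56, adjusted p = 0.983, limma). It was -0.49 without BcatGOF replicate 2 and -0.072 without replicate 1 of cells grown alone. Within pairs of the same number it was 0.14 in replicate 1 and 0.70 in replicate 2. With the replicate block it was 0.50 (fixed, SE 0.22, adjusted p = 0.632, limma) and 0.41 (random, SE 0.35, adjusted p = 0.712, limma). BcatGOF against wild-type coculture gave -1.37 (SE 0.56, adjusted p = 1.00, limma), and its range reached into that of the wild-type libraries. It was -0.63 without BcatGOF replicate 1 and -2.10 without replicate 2. Within the pairs of the same number the difference was -1.36 in replicate 1 and -0.69 in replicate 2.

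Ltbp2 was at 106, 71.9 and 65.7 FPKM in cells grown alone, at 156, 96.7 and 149 FPKM in wild-type coculture and at 116 and 103 FPKM in BcatGOF coculture. Wild-type replicates 1 and 3 were above all cells grown alone and replicate 2 was not. Over cells grown alone the log2 fold change was 0.71 (SE 0.26, adjusted p = 0.891, limma) with wild-type and 0.46 (SE 0.29, adjusted p = 0.928, limma) with BcatGOF enteroids.

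Because libraries of the same replicate number varied together, differences were also taken within each number. On the log2 scale of FPKM plus 1, wild-type coculture over cells grown alone was 1.71, 1.30 and 1.14 for Pmepa1 and 1.50, 1.39 and 1.93 for Tgfbi in replicates 1, 2 and 3. Smad7 stood at 0.64, 1.15 and 0.79, Skil at 0.74, 0.76 and 0.55, and Ltbp2 at 0.55, 0.42 and 1.17. These 5 members were higher in 3 of 3 pairs, and 20.6% of all genes tested were higher in every pair. For BcatGOF coculture 8 of 9 members were higher in both pairs, where 28.9% of all genes were. Their sizes were unequal: Smad7 differed by 0.092 in replicate 1 and 2.12 in replicate 2, Skil by 0.56 and 1.42, Tgif1 by 0.12 and 0.63, and Pmepa1 by 0.82 and 1.30. Ski differed by only 0.020 and 0.0036. Over the wild-type library of the same number, BcatGOF replicate 1 was lower for Pmepa1 (-0.88) and Smad7 (-0.55), while replicate 2 was at 0.00028 for Pmepa1 and 0.97 for Smad7. No member (0 of 9) was higher in both of these pairs, where 22.2% of all genes were.

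**Figure D3:**
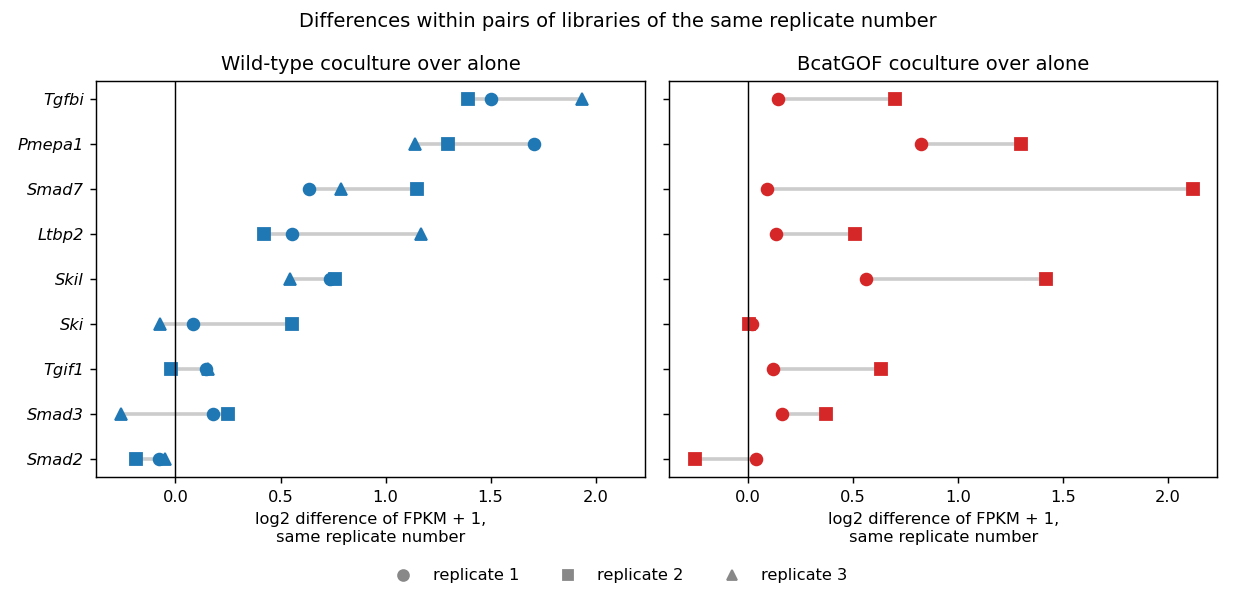
Difference in log2 of FPKM + 1 (horizontal axis) between a coculture and the cells grown alone of the same replicate number, for each gene and replicate. In wild-type coculture the 3 differences of Tgfbi, Pmepa1, Smad7, Ltbp2 and Skil are all above 0.4, and in BcatGOF coculture Smad7 spans 0.092 to 2.12.

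Epithelial RNA in the sorted cells was high in the same libraries as some of these values, and its part in them was not tested. The 2 libraries with the highest epithelial sums, wild-type replicate 3 at 121 FPKM and BcatGOF replicate 2 at 123 FPKM, also held the highest Tgfbi and Pmepa1 in the first case and the highest Smad7, Skil and Tgif1 in the second. Among the wild-type cocultures, with sums from 9.18 to 121 FPKM, Smad7 was at 16.1 to 16.3 FPKM and Skil at 12.2 to 13.8 FPKM. Wild-type replicate 2, with a sum close to that of cells grown alone, had Pmepa1 at 131 FPKM and Tgfbi at 381 FPKM. Without both of those libraries the log2 fold changes with wild-type enteroids were 1.29 for Pmepa1, 0.72 for Skil, 0.86 for Smad7 and 1.27 for Tgfbi. With BcatGOF enteroids, where replicate 1 then stood alone, they were 0.58 for Pmepa1, 0.59 for Skil, 0.31 for Smad7 and -0.49 for Tgfbi, against 0.85, 0.96, 1.07 and 0.24 with both libraries. The cocultures left in still had epithelial sums of 9.18 to 31.3 FPKM, above the 6.33 to 8.15 FPKM of cells grown alone.

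**Figure D4:**
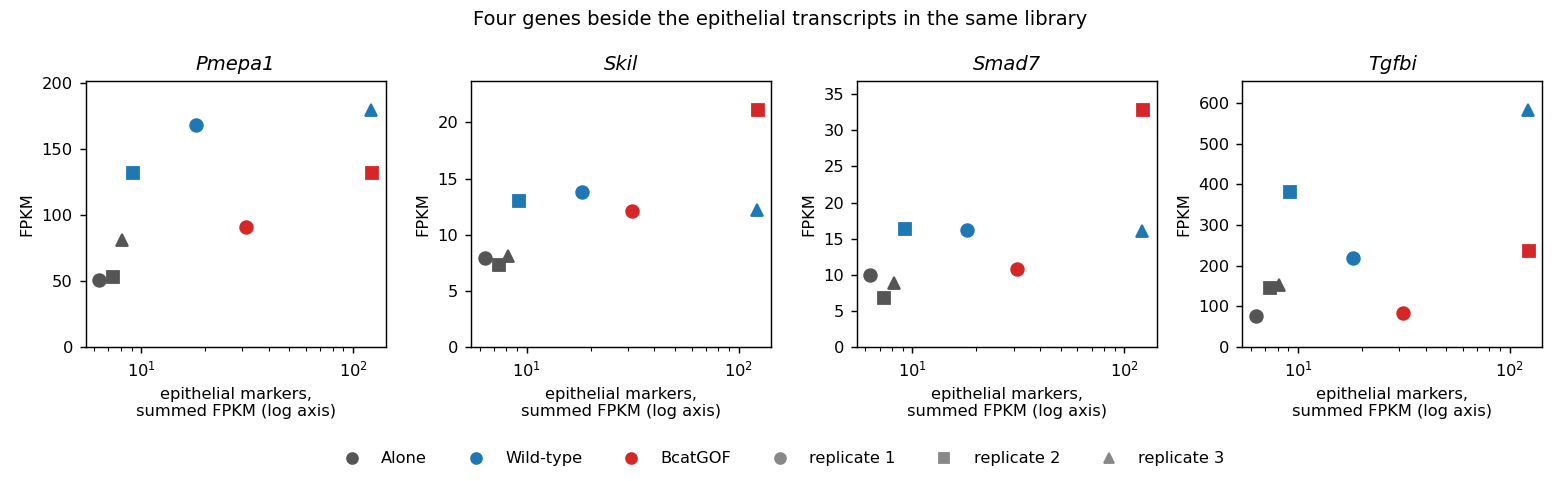
FPKM of 4 genes (vertical axis, linear) against the summed FPKM of 15 epithelial markers in the same library (horizontal axis, log). Colour marks the group and the symbol the replicate number. Wild-type replicate 2 sits at 9.18 FPKM of epithelial markers with all 4 genes above the cells grown alone. Its Krt8, Krt18 and Epcam were also above those of cells grown alone.

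The authors' deposited table compares the same groups, mesenchyme only and BcatGOF coculture, and lists only genes past a threshold (largest adjusted p 0.0150 in the authors' deposited table). It holds 3 of the 9 members, Smad7, Pmepa1 and Skil, and all 3 are higher with BcatGOF enteroids. Of the genes tested here, 15.1% are listed and 6.07% are listed and higher in the authors' deposited table. The wider pathway went both ways there. Of 29 tested TGF-β target genes 12 are listed, 6 of them higher. Of 15 tested ligands, latency proteins and receptors 8 are listed, 2 of them higher. Of 25 other SMADs, ligases and partners 5 are listed, 2 of them higher. Smad7 has a log2 fold change of 2.32 (SE 0.27, adjusted p = 8.65e-15) in the authors' deposited table. Pmepa1 is at 1.41 (SE 0.30, adjusted p = 5.50e-05) and Skil at 1.23 (SE 0.22, adjusted p = 8.30e-07) in the authors' deposited table. The log2 ratio of FPKM over the mean of cells grown alone was 0.35 in BcatGOF replicate 1 and 1.96 in replicate 2 for Smad7. It was 0.59 and 1.13 for Pmepa1, and 0.65 and 1.45 for Skil. Across the 1955 listed genes that were tested here, the sign in the authors' deposited table matched that of BcatGOF replicate 2 over cells grown alone in 100% and that of replicate 1 in 59.9%. With both BcatGOF libraries together the sign matched in 99.7%. The median absolute difference in log2 fold change from the authors' deposited table was 0.36 for replicate 2, 1.54 for replicate 1 and 0.92 for both together. The sources used here do not say which libraries entered that table.

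Upstream of the members, Tgfb1, the main ligand, was at 70.5, 55.4 and 45.5 FPKM in cells grown alone, at 123, 157 and 86.7 FPKM in wild-type coculture and at 97.1 and 205 FPKM in BcatGOF coculture. All 5 cocultures were above all cells grown alone, with log2 fold changes of 1.06 (SE 0.34, adjusted p = 0.838, limma) and 1.31 (SE 0.38, adjusted p = 0.894, limma). Furin, a protease that cuts the TGF-β precursor, had one of 0.41 (SE 0.17) with wild-type enteroids, and Tgfbr1, the type I receptor, 0.62 (SE 0.23) with BcatGOF enteroids. Of 15 tested ligands, latency proteins and receptors (18 listed), 0 passed over all genes in either comparison, 2 were at an unadjusted p under 0.05 in each, all higher, against 4.9% and 5.5% of all genes, and the list medians were 0.16 and -0.40. Tgfb3, another ligand, was at 25.0 and 14.9 FPKM in BcatGOF against 31.3, 45.1 and 55.0 FPKM in wild-type coculture (log2 fold change -1.10, SE 0.40, adjusted p = 1.00, limma), a range that did not overlap. Tgfb2 had log2 fold changes over cells grown alone of -0.63 and -0.69, Tgfb3 of 0.43 and -0.67, and Tgfbr2, the type II receptor, of 0.14 and -0.42.

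Of 25 other SMADs, SMAD ubiquitin ligases and partners, all tested, 0 passed over all genes. At an unadjusted p under 0.05 there were 1 with wild-type and 2 with BcatGOF enteroids, all higher, against 4.9% and 5.5% of all genes, and the list medians over cells grown alone were -0.0079 and -0.011. Wwp2, a ubiquitin ligase that acts on SMADs, was at 18.8, 16.6 and 14.4 FPKM in cells grown alone, at 27.8, 29.8 and 39.7 FPKM in wild-type coculture and at 21.4 and 47.0 FPKM in BcatGOF coculture. Every coculture was above every library of cells grown alone, with log2 fold changes of 0.92 (SE 0.29, adjusted p = 0.823, limma) and 0.91 (SE 0.32, adjusted p = 0.894, limma). Tgif2, the relative of Tgif1, was lower in BcatGOF than in wild-type coculture, at 7.79 and 5.64 against 9.45, 8.98 and 9.32 FPKM (log2 fold change -0.42, SE 0.16, adjusted p = 1.00, limma).

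Downstream, 9 of 29 tested TGF-β target genes were at an unadjusted p under 0.05 with wild-type enteroids, all higher, and 0 passed over all genes. Of all genes tested, 4.9% were at that p in either direction and 2.29% higher. The median log2 fold change was 0.35 for the list and 0.019 for all genes, and the list was not tested as a group. Inhba, which encodes the activin A subunit (log2 fold change 1.84, SE 0.27, adjusted p = 0.317, limma), Snai1, a transcription factor of mesenchymal cells (0.99, SE 0.24), Postn, a matrix protein (1.44, SE 0.38), and Lox, a collagen cross-linking enzyme (1.13, SE 0.32), had the smallest p-values among those whose groups did not overlap. With BcatGOF enteroids 4 of 29 were at an unadjusted p under 0.05, all higher, against 5.5% of all genes in either direction and 2.88% higher. The list median was 0.070, and that of all genes 0.014. These were Inhba (1.94, SE 0.30), Snai1 (1.13, SE 0.27), the cytokine Il11 (4.78, SE 1.398) and Klf10, an early-response transcription factor (0.55, SE 0.21). The Il11 value rested mostly on BcatGOF replicate 2, at 2587 FPKM against 85.8 FPKM in replicate 1 and 6.78 to 39.6 FPKM in cells grown alone. Il11 was also above every library of cells grown alone in wild-type coculture, at 114, 424 and 84.6 FPKM. Ccn2, a matricellular protein, was at 0.12 (SE 0.63) with wild-type and -0.41 (SE 0.71) with BcatGOF enteroids on the log2 scale.

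Between the cocultures 21 of 29 target genes had a log2 fold change below 0 in BcatGOF, and the list median was -0.37, against 0.0077 for all genes, of which 51.4% were above 0. At an unadjusted p under 0.05 there were 4 lower and 1 higher, against 1.77% of all genes lower and 2.89% in either direction. Postn was at 263 and 96.8 FPKM in BcatGOF against 530, 568 and 486 FPKM in wild-type coculture (log2 fold change -1.72, SE 0.42, adjusted p = 1.00, limma), and Col1a1, a fibrillar collagen chain, was at -1.40 (SE 0.58) and Tgfb1i1, an adhesion adaptor, at -0.66 (SE 0.26). Klf10 was higher, at 20.1 and 24.0 against 14.1, 15.4 and 11.1 FPKM (0.67, SE 0.21, adjusted p = 1.00, limma). None of these passed over all genes.

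For the 5 members whose values ranged by at least 1 on the log2 scale, the nearest profiles over the 8 libraries were sought among 8646 genes with a mean of at least 5 FPKM, small RNA and unnamed genes left out. Likeness was the root mean square distance between log2 values centred on each gene's own mean. The nearest to Pmepa1 were Fstl3 (0.24), Lox (0.26) and P4ha2 (0.28). Skil was nearest to Mxi1, Hk1 (0.12 each) and Hyou1 (0.13), and Smad7 to Nfatc1 (0.15), Wfs1 (0.18) and Foxf2 (0.20). The nearest to Tgfbi were farther off, with Csrp2 at 0.35, Tspan18 at 0.36 and Tppp3 at 0.37, and Ltbp2 was nearest to Abr (0.15), Runx1 (0.18) and Tdg (0.21). Among the members themselves, Smad3 and Tgif1 were closest (0.19), followed by Skil and Smad7 (0.23). Smad3 and Tgif1 ranged by only 0.54 and 0.88 on the log2 scale. The distance is not scaled to the range, so genes that vary little lie close whatever their pattern.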

How the data were processed

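Gene values were deposited by the authors as FPKM, 1 column per library in 8 libraries, by steps that the sources used here do not give. The submitters' processing notes name kallisto 0.46.1 and DESeq2 1.40.1, with no role. FPKM carries no depth, so no counting intervals are given. The authors' deposited table of mesenchyme only and BcatGOF coculture gives a mean signal (normalized), a log2 fold change with its SE, a test score and p-values per gene.

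The filter required 1 FPKM or more in 2 or more libraries, which 12927 of 24930 genes met. Values were taken as log2(FPKM + 1), so fold changes of low genes are understated, and fitted in limma 3.58.1 (R 4.3.3) with 3 group means over all 8 libraries, which left 5 residual degrees of freedom. The variance trend and robust options were on, and p-values were adjusted by Benjamini-Hochberg over all genes tested, with a threshold of 0.05. The scripts were tested on simulated data. No 2 libraries held identical values.

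Same-numbered libraries of different groups deviated together (correlation of deviations from the group means 0.30 to 0.55 in 7 pairs, against -0.48 to 0.21 in 14 other pairs), so the numbers were taken to pair the libraries. Deviations cancel out within a group. A correlation with 1 BcatGOF library is therefore the negative of that with the other, as with 0.48 and -0.48 for replicate 2 of cells grown alone. These sets of pairs are thus not independent of each other. The pairing comes from these values and from the shared library names, and a fit with the replicate block was an alternative. Unless stated, the SE and p-values of the members come from the fit without the block. Other alternatives changed the pseudocount, filter, scaling, groups fitted and libraries left out.

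The members, pathway lists and marker lists were chosen with earlier results of these data known. All members were named. Of each pathway list, up to 4 genes per comparison with the smallest unadjusted p under 0.05 and no overlap were named, and Tgfb1, Tgfb2, Tgfb3, Tgfbr1, Tgfbr2, Smad4 and Ccn2 always; 1 further gene of that rule is not reported here. The promoter windows are RefSeq's.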

Additional observations from a re-analysis of the deposited data

How the results depend on the processing

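Of 540 values of the members under alternatives, 517 kept their direction and side of the threshold, 21 changed sign and 2 passed only there; none of the sign changes touched a value past the threshold, and the cause was not tested. The 2 were Skil (1.34) and Smad7 (1.84), BcatGOF over cells grown alone without BcatGOF replicate 1. That fit left 1 BcatGOF library, and calls rose there over all genes too. No member was called in any other fit. With 1 library left out, values that changed sign ran from -0.051 to 0.39 for Ski and -0.059 to 0.21 for Smad3 with wild-type enteroids, from -0.47 to 0.10 for Ski, -0.35 to 0.14 for Smad2 and -0.49 to 0.98 for Tgfbi with BcatGOF enteroids, and from -0.093 to 0.66 for Skil, -0.55 to 0.98 for Smad7 and -0.25 to 0.24 for Smad2 between cocultures. Without wild-type replicate 3 and BcatGOF replicate 2 they were 0.10 for Ski, 0.14 for Smad2 and -0.49 for Tgfbi over cells grown alone, and -0.13 for Skil, -0.55 for Smad7 and 0.27 for Smad2 between cocultures. Smad3 with wild-type enteroids was -0.0010 with sample quality weights.

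With the replicate block, Smad2 between cocultures was 0.013 (fixed) and 0.0072 (random). Members at an unadjusted p under 0.05 for BcatGOF over cells grown alone were 2 (fixed) and 4 (random), against 4 without the block. Genes called with wild-type enteroids were 2 (fixed) and 5 (random), against 1 without the block. The block changed no call of a member after adjustment. With wild-type enteroids it lowered the SE of Tgfbi from 0.50 to 0.19 (fixed, adjusted p = 0.160, limma). Pmepa1 was at an adjusted p of 0.177 (fixed) and 0.0769 (random) in limma, against 0.427 without the block. The SE of Smad7 rose from 0.35 to 0.38 with the fixed block. Members at an unadjusted p under 0.05 ranged from 3 to 5 with wild-type enteroids, 1 to 4 with BcatGOF enteroids and 0 to 3 between cocultures when 1 library was left out. They were 2 with BcatGOF enteroids and 0 between cocultures in fits of 2 groups alone, 0 between cocultures with sample quality weights, and 1 with BcatGOF enteroids without both libraries named above. Genes called with wild-type enteroids were 0 at a mean of at least 5 FPKM, 9 in 2 groups alone, 4 with sample weights, 9 without both libraries and 1 to 9 with 1 left out. With BcatGOF enteroids they were 6 with no filter, 0 at a mean of at least 5 FPKM, 2 without both libraries and 1 to 198 with 1 left out (198 without BcatGOF replicate 1). Between cocultures they were 4 with no filter. With 2 BcatGOF libraries and no depth in FPKM, small differences cannot be resolved.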

Other observations

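The 2 BcatGOF libraries had a median absolute log2 difference from each other of 0.41 over the genes tested, against 0.23 to 0.28 for the other pairs of libraries within a group that were compared. Among the members, replicate 2 was 3.05-fold replicate 1 for Smad7, 2.79-fold for Tgfbi and 1.74-fold for Skil, while it was 0.66-fold for Ski and 0.67-fold for Smad2. Smad3 was the same in both to within 1% (34.8 and 34.6 FPKM).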
